A study of Mus musculus with 36 samples.

Results

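The 9 genes described here encode the chemokines Ccl2, Ccl7, Cxcl1, Cxcl5, Cxcl12 and Cxcl15, the cytokine Il6, and the NF-kB inhibitors Nfkbia and Tnfaip3. They were found by gene symbol among the probe sets of the arrays, which gave 13 probe sets for 9 of the 12393 genes measured. Nfkbia had 4 probe sets (1420088_at, 1448306_at, 1449731_s_at and 1420089_at) and Cxcl12 had 2 (1448823_at and 1417574_at), of which the brightest stands for the gene. The others had 1 each (Ccl2 1420380_at, Ccl7 1421228_at, Cxcl1 1419209_at, Cxcl5 1419728_at, Cxcl15 1421404_at, Il6 1450297_at and Tnfaip3 1450829_at). RNA came from mouse embryonic fibroblasts (MEFs), the adherent cells that grow out of minced embryos, and was measured on 36 Affymetrix arrays. The cells were PKBa-/-, which lack the protein kinase PKB alpha encoded by Akt1, or wild type, and each genotype was sampled at times 0, 2, 6, 24 and 48, for which the labels give no unit. Each group had 4 arrays, except those at time 2, which had replicates 1 and 2 alone. Both genotypes came from 13.5-day embryos of intercrossed heterozygous PKBa mice, without head and visceral organs, and grew in DMEM with 10% foetal calf serum to passage 15 to 20. The number of embryos or lines behind each genotype is not given, so a difference between genotypes and one between lines of cells cannot be told apart. The series title names DMEM as the treatment, while the protocol also describes a hormone mixture with dexamethasone, an inhibitor of phosphodiesterase and insulin for cells past confluence. Which of the media these arrays stand for is not given.

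NF-kB is a family of transcription factors held in the cytoplasm by inhibitor proteins, the IkB proteins. Signals from cytokine and pattern receptors activate the IKK kinases, the inhibitor is degraded, and NF-kB enters the nucleus and switches on chemokine and cytokine genes. Among its targets are its own inhibitors, Nfkbia (IkB alpha) and Tnfaip3 (the ubiquitin-editing enzyme A20), which end the response. Fibroblasts are a known source of the chemokines Ccl2, Cxcl1 and Cxcl12 and of Il6 in tissue.

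The promoter windows of the members with a match to the 10-letter kB consensus are shown first, since they hold letters of the element that NF-kB is known to bind and since Il6 passed at time 2 in both genotypes and Cxcl1 in PKBa-/- cells, while Nfkbia and Tnfaip3 passed in neither. They run from 250 bases before to 50 bases after the start annotated by RefSeq on GRCm38.p6, in the direction of the gene. Capitals mark the letters that match the consensus on either strand.
Il6 (chr5:30012864-30013163, plus strand): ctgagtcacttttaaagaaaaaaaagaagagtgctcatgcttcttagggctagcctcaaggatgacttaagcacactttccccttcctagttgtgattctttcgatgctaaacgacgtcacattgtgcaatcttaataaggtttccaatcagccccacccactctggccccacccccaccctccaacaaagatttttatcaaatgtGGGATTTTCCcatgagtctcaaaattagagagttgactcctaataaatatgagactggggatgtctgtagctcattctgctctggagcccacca
Cxcl1 (chr5:90890995-90891294, plus strand): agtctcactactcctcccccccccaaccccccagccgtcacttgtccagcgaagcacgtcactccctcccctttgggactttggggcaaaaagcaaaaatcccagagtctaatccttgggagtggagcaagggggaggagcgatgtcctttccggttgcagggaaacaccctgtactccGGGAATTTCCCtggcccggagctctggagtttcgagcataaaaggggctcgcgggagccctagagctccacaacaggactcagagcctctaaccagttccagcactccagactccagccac
Nfkbia (chr12:55492598-55492897, minus strand): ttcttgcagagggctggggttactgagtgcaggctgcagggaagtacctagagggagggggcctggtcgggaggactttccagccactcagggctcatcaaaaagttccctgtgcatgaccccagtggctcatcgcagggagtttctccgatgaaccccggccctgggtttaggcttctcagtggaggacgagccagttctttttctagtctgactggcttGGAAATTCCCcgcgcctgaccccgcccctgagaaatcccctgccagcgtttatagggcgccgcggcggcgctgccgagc
Tnfaip3 (chr10:19015361-19015660, minus strand): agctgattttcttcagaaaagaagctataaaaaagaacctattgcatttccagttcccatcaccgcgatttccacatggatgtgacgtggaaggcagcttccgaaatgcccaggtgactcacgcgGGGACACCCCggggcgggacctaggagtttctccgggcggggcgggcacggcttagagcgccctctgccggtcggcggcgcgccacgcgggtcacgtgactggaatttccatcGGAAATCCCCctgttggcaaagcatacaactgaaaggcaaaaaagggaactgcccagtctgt

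Of the 9 members, 6 had a window in the RefSeq table, and 4 of these held a match. The Il6 match began at position -44 on the strand of the gene. In Cxcl1, matches on opposite strands began at -71 and -70 and overlapped. The Nfkbia match began at -29 and lay on the opposite strand. Tnfaip3 held matches on both strands at -125 and another at -12, and its other annotated window (chr10:19011914-19012213) held none. The windows of Cxcl12 and Cxcl15 held no match. Of 32851 windows of the same length, 8.46% held at least 1 match. A match describes letters in a window and is no measured binding site.

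**Figure D1:**
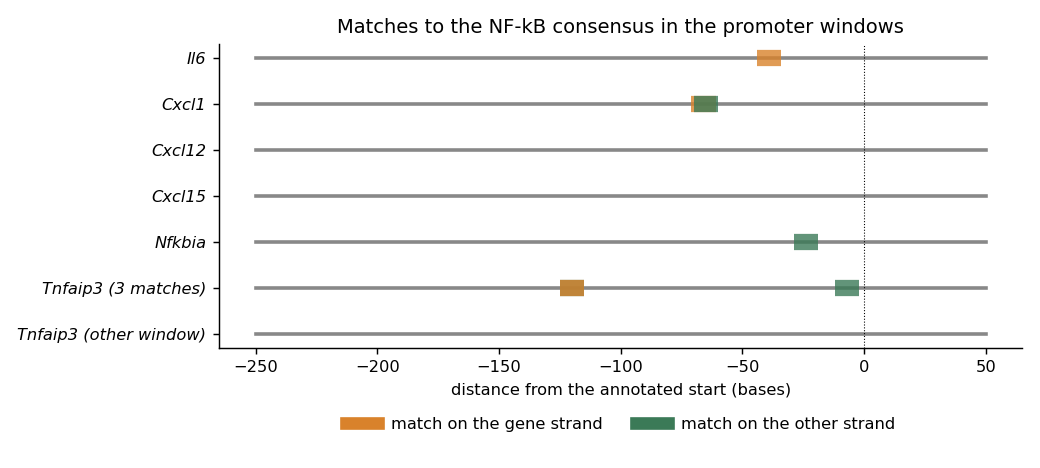
Position of matches to the kB consensus of NF-kB (coloured blocks) in the promoter windows of 6 members, by distance in bases from the annotated start. Matches lie within 125 bases before the start in Il6, Cxcl1, Nfkbia and 1 window of Tnfaip3, with matches on both strands drawn over each other in Cxcl1 and at the farther Tnfaip3 position, and the windows of Cxcl12, Cxcl15 and the other Tnfaip3 window hold none.

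Signals are the deposited probe set intensities on a linear scale, and array medians ran from 134 to 145. Differences are on the scale of log2(signal + 32), which understates changes of genes with a low signal. Arrays 1 and 2 of a group, and likewise 3 and 4, resembled each other more than arrays of different pairs did (mean correlation 0.996 within and 0.985 between pairs). Each pair was therefore averaged and counted as 1 replicate in the limma fit, in which a gene passed at a two-sided adjusted p under 0.05. The test took the 7436 genes with the higher mean signals, among them Ccl2, Cxcl1, Cxcl12, Cxcl15 and Nfkbia. Ccl7, Cxcl5, Il6 and Tnfaip3 were below this limit, and their values come from a fit of all 12393 genes with no limit. The labels do not say that replicates were separate cultures, so each p measures the spread between these pairs. An average over the times counts the pairs of a replicate set at different times as independent. Pairs of a set may share a deviation at all times (estimated correlation within sets of a genotype 0.50). The SE and p of such an average may thus be too small. Where a block is given for a change over time, it is the replicate set (1 and 2, or 3 and 4) of each genotype. For a difference between genotypes the sets are its only replication, and there the block is the set shared by both genotypes, an alternative chosen after seeing the data.

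Akt1 read 74.3 ± 14.3 in PKBa-/- arrays and 1117 ± 183 in wild type arrays (SD, n = 18 each), which sets the genotypes apart as labelled. Of the fibroblast markers, 10 of 10 were among the tested genes, with a summed signal of 60072 to 69171 in PKBa-/- and 52991 to 65814 in wild type arrays. The sum is carried by collagens, and single markers parted the genotypes in opposite directions, as seen after their values were known. Dcn (decorin) read 399 to 1754 in PKBa-/- and 4280 to 11171 in wild type arrays, and Thy1 read 2526 to 5852 in PKBa-/- and 104 to 2488 in wild type arrays. Of 12 leukocyte markers 3 were tested, and the sum over the 12 was 766 to 1170 in PKBa-/- and 915 to 1543 in wild type arrays. Ptprc (CD45), which marks leukocytes, read 13.6 to 26.3 in PKBa-/- and 14.8 to 20.1 in wild type. Cd14, a co-receptor for endotoxin and 1 of the 3 tested, read 50.3 to 106 in PKBa-/- and 109 to 656 in wild type arrays. Of 7 endothelial markers 1 was tested, and the sum was 419 to 668 in PKBa-/- and 645 to 1833 in wild type. The difference was carried by the 1 tested, Kdr, at 149 to 336 in PKBa-/- and 401 to 1529 in wild type arrays. The other 6 were dim, and their ranges overlapped between genotypes. Of 8 epithelial and mesothelial markers 2 were tested, and the sum was 391 to 531 in PKBa-/- and 4665 to 7584 in wild type arrays, carried by Upk3b and Wt1. The lowest value on any array was 8.62, so no gene reads 0, and a low reading does not show that a marker was expressed. The epithelial and mesothelial sums of the genotypes did not overlap and the endothelial sums did so slightly. The part of these sums and of Dcn, Thy1 and Cd14 in the genotype differences below was not tested. In such bulk samples, fewer cells of a type and less RNA per cell cannot be told apart.

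Il6, the cytokine that signals through the receptor chains Il6ra and Il6st, rose at time 2 in both genotypes and was near its time 0 level again at time 6. At time 2 its signal was 256 and 301 in PKBa-/- arrays and 336 and 469.6 in wild type arrays. At time 0 it was 17.6, 18.4, 18.2 and 20.0 in PKBa-/- arrays and 28.8, 31.3, 29.7 and 23.1 in wild type arrays. All 4 arrays at time 2 lay above every other array of the series, and at time 0 the 4 PKBa-/- arrays lay below the 4 wild type arrays. The ratio of mean signals at time 2 to time 0 was 15.0 in PKBa-/- and 14.3 in wild type cells. The log2 differences were 2.62 ± 0.10 (adjusted p = 4.4e-07) in PKBa-/- and 2.84 ± 0.10 (adjusted p = 3.8e-07) in wild type cells. Their difference between genotypes was -0.22 ± 0.15 (adjusted p = 0.96), which did not pass. Il6 then fell between times 2 and 6 in PKBa-/- (-2.42 ± 0.10, adjusted p = 2.0e-06) and in wild type cells (-2.72 ± 0.10, adjusted p = 5.9e-07). From time 24 on it lay between 15.2 and 23.5 in PKBa-/- and between 22.0 and 34.5 in wild type arrays. Averaged over the 5 times it was lower in PKBa-/- (-0.26 ± 0.04, adjusted p = 5.0e-04), whereas no single time passed.

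**Figure D2:**
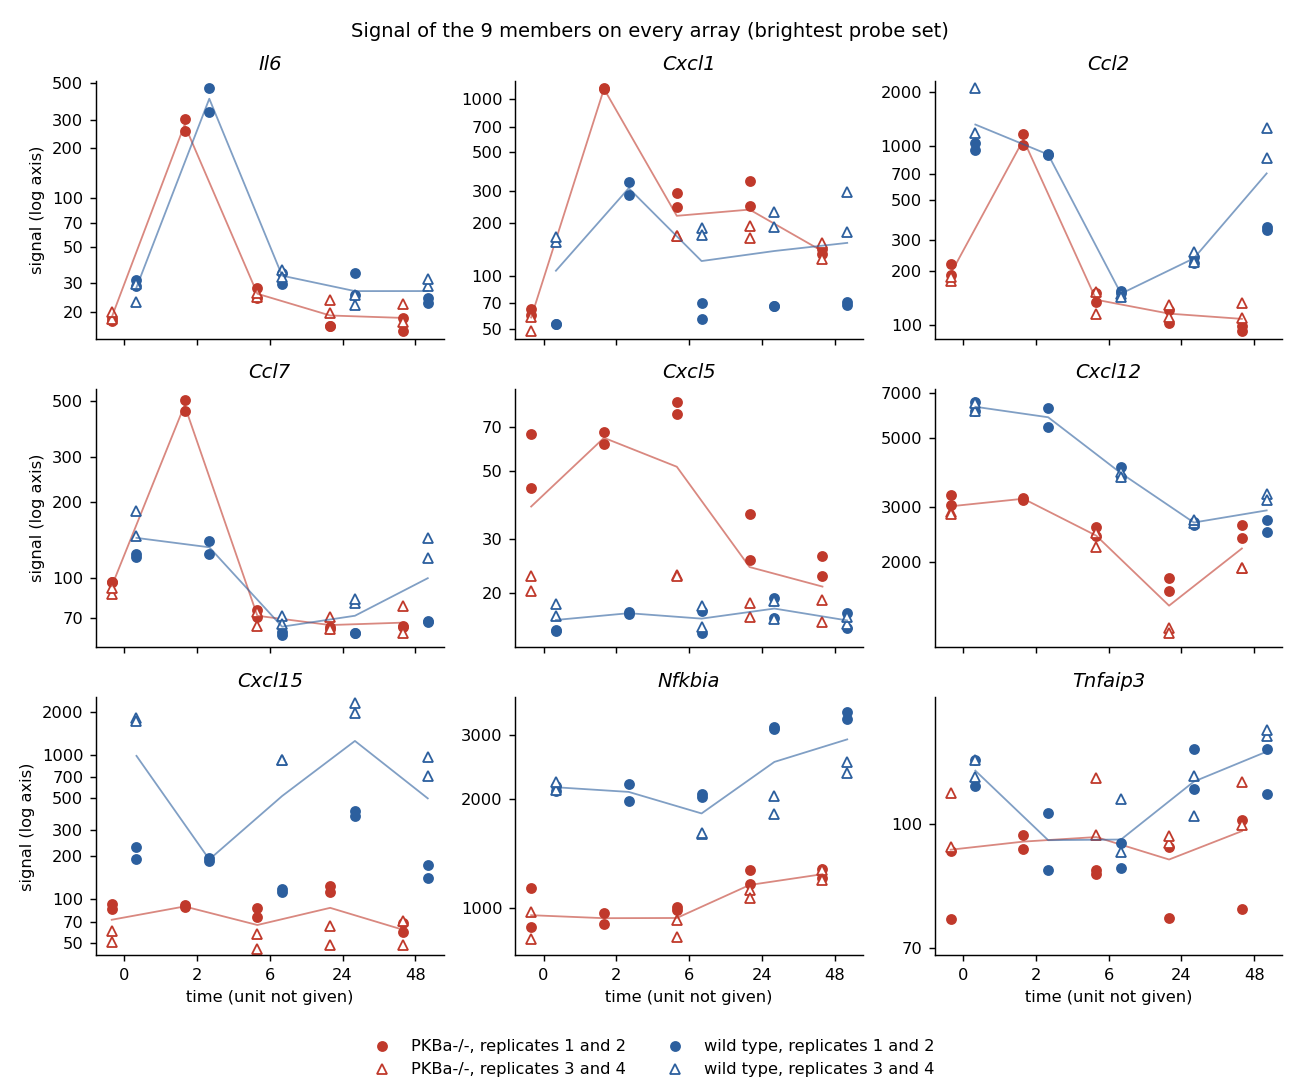
Signal (log axis, own range per gene) of the 9 members by time on each of the 36 arrays, with PKBa-/- in red left of wild type in blue; filled circles are replicates 1 and 2, open triangles replicates 3 and 4, and lines join group means. Il6 peaks at time 2 in both genotypes, Ccl7 in PKBa-/- alone, and Nfkbia is lower in PKBa-/- at each time.

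Cxcl1, a chemokine that attracts neutrophils through Cxcr2, had the largest estimated change from time 0 among the 9 members, at time 2 in PKBa-/- cells. In PKBa-/- cells its signal was 59.5, 65.1, 58.3 and 48.6 at time 0, 1153 and 1138 at time 2 and 246, 292, 168 and 167 at time 6. It was 345, 247, 163 and 192 at time 24 and 133, 141, 124 and 152 at time 48. No array of a later time overlapped those of time 0 in this genotype. Time 2 was 19.8 times time 0 by mean signal, and this rise passed (3.72 ± 0.66, adjusted p = 0.0088). The later differences from time 0 were 1.45 ± 0.54 at time 6, 1.54 ± 0.54 at time 24 and 0.92 ± 0.54 at time 48, with adjusted p of 0.085, 0.12 and 0.37. With the replicate set as a block, these had adjusted p = 3.8e-06, 5.4e-06 and 2.5e-04.

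In wild type cells the replicate sets of Cxcl1 stood apart. Its signal was 52.9, 53.2, 155 and 165 at time 0, 285 and 341 at time 2 and 70.3, 56.6, 186 and 171 at time 6. It was 67.2, 66.8, 189.6 and 228 at time 24 and 71.2, 68.4, 298 and 176 at time 48. Replicates 3 and 4 were 2.81 to 3.39 times replicates 1 and 2 at times 0, 6, 24 and 48, while time 2 has replicates 1 and 2 alone. Over all arrays the change to time 2 was 1.43 ± 0.66 and did not pass (adjusted p = 0.36). With the replicate set as a block it was 2.05 and passed (adjusted p = 3.3e-06). In replicates 1 and 2 alone it was 2.02, beside 3.64 in PKBa-/- cells. Both time 2 arrays of PKBa-/- lay above both of wild type, with a ratio of mean signals of 3.66. That genotype difference was 1.78 ± 0.76 and did not pass (adjusted p = 0.25). At time 24 the genotype difference was 0.76 ± 0.54 (adjusted p = 0.38). Within replicates 1 and 2 it was 1.71, and within replicates 3 and 4 -0.20. At time 0 replicates 1 and 2 averaged 62.3 in PKBa-/- and 53.0 in wild type cells, and replicates 3 and 4 averaged 53.4 and 160. The direction of the genotype difference in Cxcl1 at times 0, 6, 24 and 48 thus differed between the replicate sets.

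Ccl2 (MCP-1), which attracts monocytes through Ccr2, was lower in PKBa-/- cells at times 0 and 48, while at time 2 the PKBa-/- arrays lay slightly above the wild type ones. In PKBa-/- cells its signal was 190.3, 219, 177 and 185 at time 0, 1005 and 1159 at time 2 and 151, 134, 153 and 115 at time 6. It was 122, 102, 111 and 129 at time 24 and 93.1, 99.0, 132 and 109 at time 48. In PKBa-/- the 2 arrays of time 2 stood alone above all others. In wild type cells the signal was 1043, 949, 2088 and 1175 at time 0, 889.9 and 898 at time 2 and 155, 152, 149.8 and 143 at time 6. It was 221, 241, 226 and 255 at time 24 and 355, 337, 1262 and 852 at time 48. Wild type cells thus had their highest mean at time 0 and their lowest arrays at time 6. Every PKBa-/- array lay below every wild type array at times 0, 24 and 48.

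From time 0 to time 2, Ccl2 rose in PKBa-/- cells, 5.60 times by mean signal (2.31 ± 0.43, adjusted p = 0.011). The same difference in wild type cells was -0.47 ± 0.43 (adjusted p = 0.76). The difference of these changes between genotypes was 2.78 ± 0.60 and did not pass (adjusted p = 0.13), and with the block it was 2.52 (adjusted p = 0.014). Between times 2 and 6 Ccl2 fell in PKBa-/- (-2.71 ± 0.43, adjusted p = 0.0032) and in wild type cells (-2.35 ± 0.43, adjusted p = 0.0094). With only the compared groups in the fit, the fall in wild type did not pass (adjusted p = 0.091). Relative to time 0, Ccl2 in wild type cells was lower at time 6 (-2.82 ± 0.35, adjusted p = 4.7e-04) and at time 24 (-2.26 ± 0.35, adjusted p = 0.0035). The call at time 24 was lost with the compared groups alone (adjusted p = 0.060). At time 48 the difference from time 0 was -1.01 ± 0.35 (adjusted p = 0.12, and 0.011 with the replicate set as a block), and without wild type time 48 replicate 3 it was -1.15 (adjusted p = 0.041).

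The genotype difference of Ccl2 was -2.51 ± 0.35 at time 0 (adjusted p = 3.4e-04), where the wild type mean signal was 6.80 times that of PKBa-/-. It was -2.19 ± 0.35 at time 48 (adjusted p = 6.9e-04) and -0.86 ± 0.35 at time 24 (adjusted p = 0.11). At times 2 and 6 it was 0.26 ± 0.49 and -0.10 ± 0.35 (adjusted p = 0.88 and 0.90), and at time 6 the arrays of the genotypes overlapped. The change from time 0 to time 6 differed between genotypes by 2.42 ± 0.49 (adjusted p = 0.054, and 0.0012 with the block), and that to time 24 by 1.66 ± 0.49 (adjusted p = 0.26, and 0.015 with the block). The difference at time 6 also passed on leaving out any of 5 single arrays. Its adjusted p was 0.028 without wild type time 48 replicate 3, 0.046 without wild type time 0 replicate 2, 0.049 without PKBa-/- time 0 replicate 2, 0.048 without PKBa-/- time 6 replicate 2 and 0.045 without PKBa-/- time 6 replicate 4.

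Ccl7 (MCP-3), a relative of Ccl2 that also attracts monocytes, rose at time 2 in PKBa-/- cells. Its signal there was 456 and 506 at time 2, against 96.7, 97.2, 86.4 and 92.1 at time 0. In wild type cells it was 125 and 140.0 at time 2, against 125, 121, 184 and 147 at time 0, and these groups overlapped. With 1 pair of time 2 in each genotype, the SE of differences with time 2 comes from the other groups, where Ccl7 read at most 184. The change was 2.03 ± 0.24 in PKBa-/- (adjusted p = 0.0012) and -0.09 ± 0.24 in wild type cells (adjusted p = 0.91). The difference between these changes passed in the fit with no limit on signal (2.12 ± 0.34, adjusted p = 0.037). Ccl7 was the 1 member to pass there, in a comparison that called 0.21% of 12393 genes. At time 2 Ccl7 was higher in PKBa-/- than in wild type cells (1.64 ± 0.27, adjusted p = 0.0060). It then fell to 75.4, 70.7, 64.9 and 74.0 at time 6 in PKBa-/- (-2.31 ± 0.24 against time 2, adjusted p = 5.2e-04). In wild type cells it read 61.7, 59.6, 70.9 and 65.8 at time 6, lower than at time 0 (-0.86 ± 0.19, adjusted p = 0.024), and the difference from time 2 was -0.77 ± 0.24 (adjusted p = 0.10, and 0.0029 with the block). Against time 0 it was -0.77 ± 0.19 at time 24 and -0.45 ± 0.19 at time 48 (adjusted p = 0.059 and 0.27, and 0.0018 and 0.026 with the block). From time 24 on, Ccl7 lay between 60.9 and 82.8 on all arrays other than wild type replicates 3 and 4 at time 48, which read 145 and 120.2. The same 2 arrays of Ccl2 were the highest of their group as well.

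Cxcl5 (LIX), a further neutrophil attractant of the Cxcr2 group, was read near the bottom of the scale in wild type cells, at 14.8 to 19.3 on every array. PKBa-/- arrays read 44.1, 66.3, 20.3 and 22.7 at time 0, 67.4 and 61.4 at time 2 and 77.0, 84.5, 22.8 and 22.8 at time 6. They read 25.6, 36.4, 16.7 and 18.5 at time 24 and averaged 21.0 ± 4.49 at time 48 (SD, n = 4). All PKBa-/- arrays lay above the wild type arrays at times 0, 2 and 6, with replicates 1 and 2 higher than replicates 3 and 4 at times 0 and 6. The genotype difference at time 0 was 0.88 within replicates 1 and 2 and 0.11 within replicates 3 and 4. Over both it was 0.49 ± 0.29 (adjusted p = 0.32), and no single time passed. Averaged over the times Cxcl5 was higher in PKBa-/- (0.49 ± 0.14, adjusted p = 0.019). Its change from time 0 to time 2 in PKBa-/- was 0.50 ± 0.35 (adjusted p = 0.94), and 0.16 within replicates 1 and 2.

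**Figure D3:**
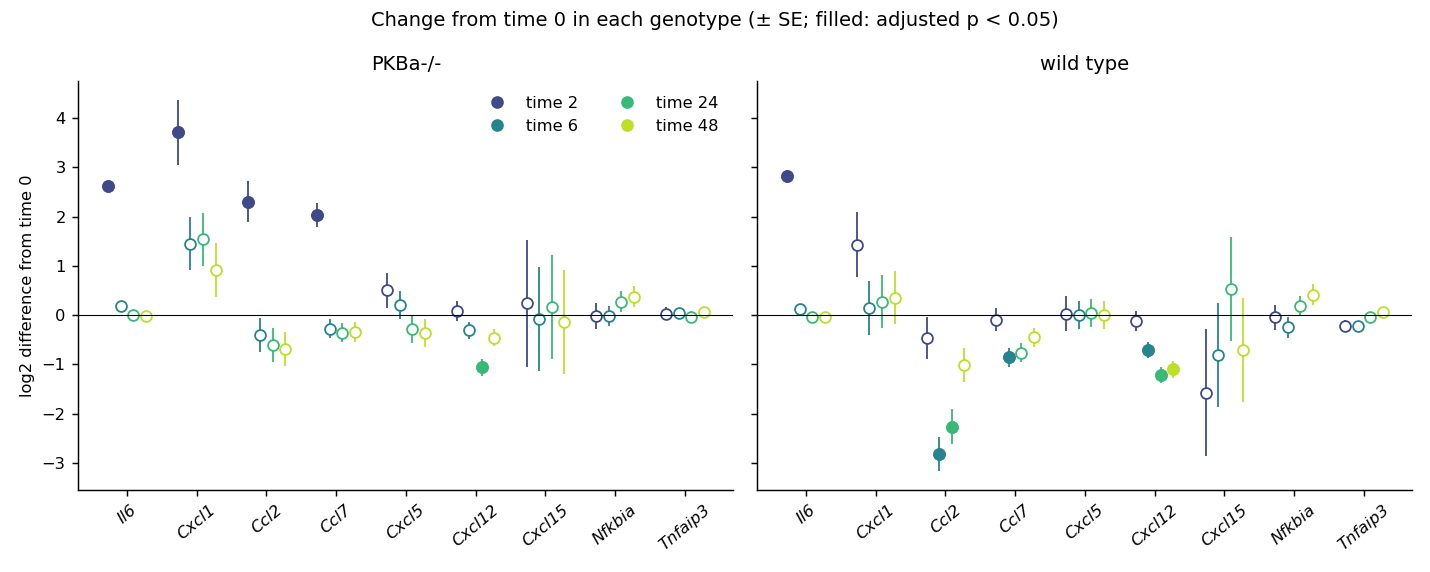
Difference of log2(signal + 32) from time 0 at times 2, 6, 24 and 48 (± SE from limma) for the 9 members, PKBa-/- left and wild type right; filled points passed an adjusted p of 0.05, in the fit with no limit on signal for Il6, Ccl7, Cxcl5 and Tnfaip3. Il6 rose by 2.62 in PKBa-/- and 2.84 in wild type cells at time 2, Cxcl1, Ccl2 and Ccl7 passed at time 2 in PKBa-/-, and Ccl2 and Cxcl12 lie below 0 at later times in wild type.

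Cxcl12 (SDF-1), the stromal ligand of Cxcr4 and Ackr3 that many mesenchymal cells make without stimulation, was lower in PKBa-/- cells at times 0, 6 and 24 on its brighter probe set and fell by time 24 in both genotypes. On its brighter probe set PKBa-/- cells read 3288, 3063, 2898 and 2856 at time 0, 3222 and 3177 at time 2 and 2589.8, 2432, 2239 and 2489 at time 6. They read 1778, 1619, 1232 and 1191 at time 24 and 2395, 2632, 1926 and 1918 at time 48. Time 24 was the lowest point of PKBa-/- cells, with no overlap with any other time, and time 48 lay above it. Wild type cells read 6102, 6522, 6089 and 6497 at time 0, 5423 and 6245 at time 2 and 4049.5, 3758, 3900.1 and 3744 at time 6. They read 2691, 2634, 2679.6 and 2735 at time 24 and 2744, 2504, 3321 and 3177 at time 48. Every PKBa-/- array lay below every wild type array at times 0, 2, 6 and 24, and at time 48 the ranges overlapped.

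The genotype difference of Cxcl12 was -1.05 ± 0.17 at time 0 (adjusted p = 1.0e-03), -0.66 ± 0.17 at time 6 (adjusted p = 0.018) and -0.89 ± 0.17 at time 24 (adjusted p = 0.0024). At time 2, with 1 pair in each genotype, it was -0.86 ± 0.23 (adjusted p = 0.053). It passed there on leaving out any of 5 single arrays, with adjusted p = 0.031 without wild type time 2 replicate 1 and 0.041 without PKBa-/- time 24 replicate 1. The others were PKBa-/- time 48 replicate 2 (0.046), wild type time 48 replicate 2 (0.048) and PKBa-/- time 2 replicate 1 (0.049). At time 48 it was -0.40 ± 0.17 (adjusted p = 0.10), -0.06 in replicates 1 and 2 alone and -0.75 in replicates 3 and 4 alone. From time 0 to time 24 Cxcl12 fell in PKBa-/- (-1.06 ± 0.17, adjusted p = 0.0028) and in wild type cells (-1.22 ± 0.17, adjusted p = 0.0018). In wild type cells it was also below time 0 at time 6 (-0.70 ± 0.17, adjusted p = 0.018) and time 48 (-1.10 ± 0.17, adjusted p = 0.0030), and from time 2 to time 6 it differed by -0.59 ± 0.20 (adjusted p = 0.10, and 0.0080 with the block). PKBa-/- cells differed from time 0 at times 6 and 48 by -0.31 ± 0.17 and -0.45 ± 0.17 (adjusted p = 0.24 and 0.13, and 0.046 and 0.0092 with the block). The change to time 48 differed between genotypes by 0.65 ± 0.23 (adjusted p = 0.29, and 0.018 with the block).

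The other Cxcl12 probe set, 1417574_at, gave a steeper fall in wild type cells. Its mean signal at time 48 was 938 ± 245 in PKBa-/- and 974 ± 141 in wild type arrays (SD, n = 4 each). At time 0 it was 1656 ± 268 in PKBa-/- and 4676 ± 1467 in wild type arrays. The genotypes were thus apart at time 0 and overlapped at time 48. With every probe set tested, it was lower in PKBa-/- at 1 of 5 times, and the calls at times 6 and 24 did not hold on it (-0.97 and -0.94, adjusted p = 0.074 and 0.072). The difference was -1.44 ± 0.33 at time 0 (adjusted p = 0.0128) and -0.08 ± 0.33 at time 48 (adjusted p = 0.91). Between times 0 and 48 it was -2.18 ± 0.33 in wild type cells (adjusted p = 0.0037) and -0.82 ± 0.33 in PKBa-/- cells (adjusted p = 0.19).

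Cxcl15 (lungkine), a mouse chemokine described in lung epithelium, was lower in PKBa-/- cells averaged over the times, and its level in wild type cells differed with the replicate set. PKBa-/- arrays read 92.1, 85.2, 50.5 and 60.6 at time 0, 87.7 and 90.6 at time 2 and 86.8, 75.7, 57.2 and 45.5 at time 6. They read 124, 112, 65.2 and 48.1 at time 24 and 59.4, 68.1, 70.5 and 47.8 at time 48, so that the highest array of this genotype read 124. Wild type arrays read 231, 191, 1807 and 1715 at time 0, 185 and 192 at time 2 and 112, 117, 927 and 921 at time 6. They read 375, 408, 2279 and 1942 at time 24 and 173, 141, 967 and 719.5 at time 48. Replicates 3 and 4 of wild type were 5.37 to 8.35 times replicates 1 and 2 of the same time. Every PKBa-/- array lay below every wild type array at each of the 5 times.

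The genotype difference of Cxcl15 was -2.68 ± 1.05 at time 0 and -3.05 ± 1.05 at time 24 over both sets (adjusted p = 0.11 and 0.061), and no single time passed. Within replicates 1 and 2 it was -1.01 and -1.50, and within replicates 3 and 4 -4.36 and -4.60. Time 24 passed with the set shared by both genotypes as a block (adjusted p = 0.019), and time 48 did not (-2.12 ± 1.05, adjusted p = 0.080). That block assumes that a set deviates alike in both genotypes. At time 24 replicates 3 and 4 were 5.39 times replicates 1 and 2 in wild type and 0.48 times in PKBa-/- cells. Averaged over the 5 times Cxcl15 was lower in PKBa-/- (-2.13 ± 0.52, adjusted p = 0.0045). The SE of that average may be too small, since the wild type sets stood apart in the same direction at times 0, 6, 24 and 48. In both sets of wild type cells time 24 stood above time 6. Against time 0, wild type cells differed by -0.81 ± 1.05 at time 6, 0.53 ± 1.05 at time 24 and -0.71 ± 1.05 at time 48, with adjusted p of 0.67, 0.84 and 0.76. With the block these had adjusted p = 0.0018, 0.030 and 0.0062. The labels do not say what sets replicates 3 and 4 apart from replicates 1 and 2, and the difference was not tested further.

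Nfkbia (IkB alpha), the inhibitor that binds NF-kB in the cytoplasm, was lower in PKBa-/- cells at every time and did not follow the time 2 rise of Il6. PKBa-/- arrays read 885, 1129.8, 820.2 and 975 at time 0, 969 and 901 at time 2 and 987, 1001, 829 and 926 at time 6. They read 1269, 1165, 1119 and 1065 at time 24 and 1276, 1206, 1269.8 and 1193 at time 48. Every one of these lay below every wild type array of its time. Wild type arrays read 2160.2, 2104, 2117 and 2217 at time 0, 1974 and 2199.6 at time 2 and 2017, 2065, 1592 and 1605 at time 6. They read 3144, 3106, 1815 and 2037 at time 24 and 3327, 3461, 2522 and 2348 at time 48. At times 6, 24 and 48 replicates 1 and 2 of wild type lay above replicates 3 and 4.

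The genotype difference of Nfkbia was -1.16 ± 0.21 at time 0, -0.93 ± 0.21 at time 6, -1.07 ± 0.21 at time 24 and -1.20 ± 0.21 at time 48, with adjusted p of 0.0027, 0.0097, 0.0034 and 0.0015. At time 2 it was -1.13 ± 0.30 (adjusted p = 0.044). That call was lost with no limit on signal (0.067), with every probe set tested (0.052) and on leaving out any of 5 single arrays. Its adjusted p was 0.058 without wild type time 2 replicate 2, 0.057 without wild type time 24 replicate 4, 0.056 without PKBa-/- time 2 replicate 2, 0.053 without PKBa-/- time 0 replicate 1 and 0.053 without wild type time 48 replicate 3. Of the other 3 probe sets of Nfkbia, 1448306_at was lower in PKBa-/- at 5 of 5 times and 1449731_s_at at 4 of 5. The third, 1420089_at, was lower at 1 of 5, with differences from -0.18 to -0.63. The change from time 0 to time 2 was -0.02 ± 0.26 in PKBa-/- and -0.04 ± 0.26 in wild type cells (adjusted p = 0.998 and 0.97). No later change passed in either genotype. At time 48 the difference from time 0 was 0.37 ± 0.21 in PKBa-/- (adjusted p = 0.34, and 0.048 with the replicate set as a block) and 0.41 ± 0.21 in wild type cells (adjusted p = 0.30, and 0.033 with the block).

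Tnfaip3 (A20), the enzyme that removes activating ubiquitin chains upstream of IKK, passed at no single time without a block, between genotypes or against time 0. At time 2 it read 93.1 and 97.0 in PKBa-/- and 103 and 87.6 in wild type arrays. At time 0 it read 92.4, 76.1, 93.6 and 109 in PKBa-/- and 112, 120.1, 120.0 and 115 in wild type arrays. At time 48 it read 101, 78.3, 113 and 99.7 in PKBa-/- and 109, 124, 129 and 131 in wild type arrays. PKBa-/- arrays lay below wild type at time 0, and the ranges overlapped at times 2 and 48. The genotype differences were -0.26 ± 0.10 at time 0, -0.25 ± 0.10 at time 24 and -0.26 ± 0.10 at time 48 (adjusted p = 0.16, 0.16 and 0.13). With the shared set as a block the last had adjusted p = 0.038. Time 6 differed from time 0 by -0.22 ± 0.10 in wild type cells (adjusted p = 0.26, and 0.043 with the block). Averaged over the times Tnfaip3 was lower in PKBa-/- (-0.15 ± 0.05, adjusted p = 0.038).

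**Figure D4:**
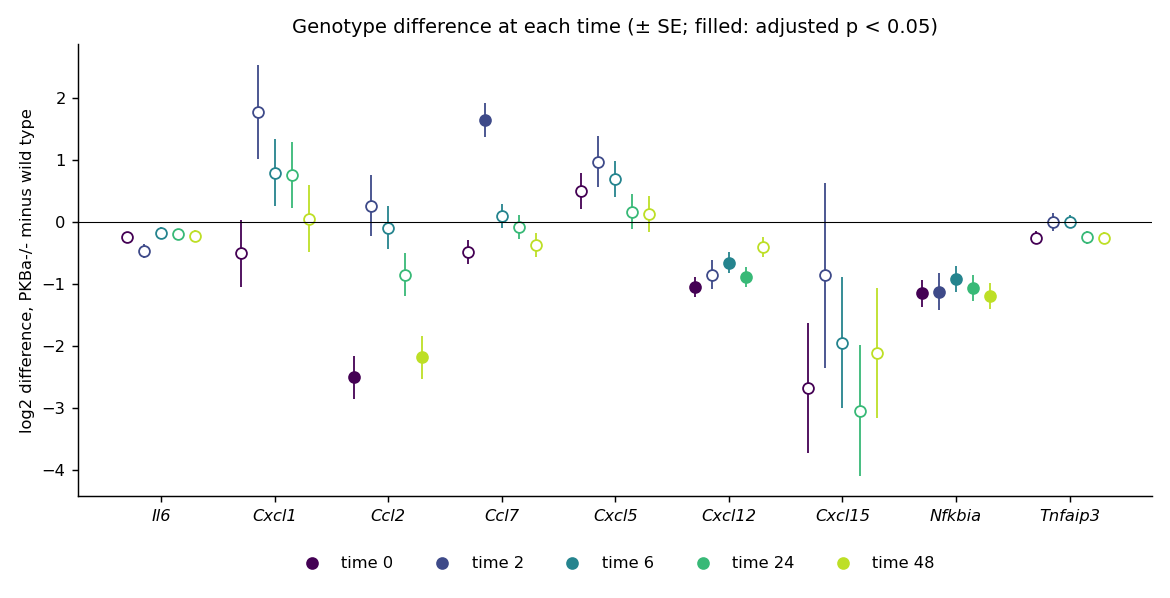
Difference of log2(signal + 32), PKBa-/- minus wild type (± SE from limma), for the 9 members at each of the 5 times; filled points passed an adjusted p of 0.05, in the fit with no limit on signal for Il6, Ccl7, Cxcl5 and Tnfaip3. Nfkbia and Cxcl12 lie below 0 throughout, Ccl2 is lowest at times 0 and 48, Ccl7 is above 0 at time 2, and Cxcl15 has the widest errors.

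Counted over the 5 tested members, PKBa-/- cells were lower in 3 at time 0 (Ccl2, Cxcl12 and Nfkbia), where 8.42% of the 7436 genes were lower. They were lower in 1 at time 2 (Nfkbia; 2.85% of genes), in 2 at time 6 (Cxcl12 and Nfkbia; 8.07%), in 2 at time 24 (the same genes; 10.7%) and in 2 at time 48 (Ccl2 and Nfkbia; 10.9%). Averaged over the times 4 of 5 were lower, against 20.9% of genes, all but Cxcl1 (0.57 ± 0.26, adjusted p = 0.094). Of these, Cxcl15 passed the limit on signal, which corresponds to 123, only through its wild type arrays, since PKBa-/- arrays read at most 124. Its place among the lower genes is thus no independent support. The median difference of the 5 tested members, Cxcl15 among them, was -1.16 at time 0, beside 0.03 over all tested genes. With the 4 members below the limit included, the median of the members at time 0 was -0.51. Of the 4 members below the limit, the fit of all genes called Ccl7 at time 2, where it called 4.21% of 12393 genes in either direction. Averaged over the times that fit called Cxcl5, Il6 and Tnfaip3, beside 34.1% of all genes.

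From time 0 to time 2, 2 of the 5 tested members rose in PKBa-/- cells (Cxcl1 and Ccl2), where 2.17% of the genes rose, and none rose in wild type cells, where 1.3% rose. With the replicate set as a block Cxcl1 rose in wild type cells as well, where 3.2% of genes did. Without the block limma gave an unadjusted p under 0.05 to 0 of the 5, and with arrays as replicates 1 passed, where 17.9% of genes did in either direction. Il6 and Ccl7 rose in PKBa-/- and Il6 in wild type cells in the fit of all genes, which called 2.18% and 2.09% of genes in either direction. At time 6, 2 of 5 members were lower than at time 0 in wild type cells (Ccl2 and Cxcl12; 7.72% of genes) and none in PKBa-/- cells (9.78% of genes), where 1 had an unadjusted p under 0.05 and 2 passed with arrays as replicates (40.4% of genes in either direction). Of the 4 dim members Ccl7 was the 1 to fall by then in the fit of all genes in wild type cells, beside 7.44% called in either direction. At time 24 the number was 1 in PKBa-/- cells (Cxcl12; 3.35% of genes) and 2 in wild type cells (Ccl2 and Cxcl12; 3.46%). At time 48 it was none in PKBa-/- cells (4.36% of genes) and 1 in wild type cells (Cxcl12; 3.9%). Of the PKBa-/- members 1 had an unadjusted p under 0.05 there, and 4 passed with arrays as replicates (29.4% of genes). Between times 2 and 6 Ccl2 was the 1 tested member of 5 to fall in either genotype, where 4.88% of genes fell in PKBa-/- and 2.69% in wild type cells. The fit of all genes added Il6 and Ccl7 in PKBa-/- (5.79% of genes called) and Il6 in wild type cells (3.91%). For Cxcl1 in PKBa-/- this difference was -2.27 ± 0.66 (adjusted p = 0.054), and it passed without PKBa-/- time 6 replicate 2, PKBa-/- time 24 replicate 1, wild type time 24 replicate 4 or wild type time 48 replicate 3 (adjusted p = 0.047 to 0.049). For Cxcl1 in wild type it was -1.28 ± 0.66 (adjusted p = 0.27). With the block it was -2.10 in PKBa-/- and -1.90 in wild type cells (adjusted p = 4.1e-06 and 1.3e-05).

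The difference between genotypes in the change from time 0 was called by limma for 0 of the 5 tested members at times 2, 6, 24 and 48, in comparisons that called 0.242%, 0.551%, 0.726% and 1.14% of the genes. At an unadjusted p under 0.05 it was met by 2, 1, 1 and 1 of them, and with arrays as replicates 2, 1, 1 and 1 passed after adjustment, beside 2.25%, 8.82%, 8.24% and 14.3% of the genes. A rise that passed in PKBa-/- beside one that did not pass in wild type cells is no test that they differ. For Cxcl1 that test gave 2.29 ± 0.94 (adjusted p = 0.999), with the replicate set as a block an adjusted p of 0.0068, and a difference of 1.63 within replicates 1 and 2. At times 6 and 24 it gave 1.30 ± 0.76 and 1.27 ± 0.76 (adjusted p = 0.80 and 0.82, and 0.0011 and 0.0015 with the block).

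Receptors for these ligands were mostly low on the arrays. Of 22 chemokine receptors and Il6 receptor chains on the array, 18 were below the limit on signal, and none of these exceeded 201 on any array. Cxcr4, the receptor of Cxcl12, reached at most 24.8 in PKBa-/- and 27.1 in wild type arrays. Ccr2, the receptor of Ccl2 and Ccl7, read 21.5 to 28.8 in PKBa-/- and 20.4 to 29.2 in wild type arrays. The signal-transducing chain Il6st (gp130) was the 1 receptor gene of 4 tested to pass. It was lower in PKBa-/- at time 0 (-0.74 ± 0.19, adjusted p = 0.022), beside 8.42% of all tested genes. Averaged over the times it was lower as well (-0.40 ± 0.09, adjusted p = 0.0036). In that average 20.9% of all tested genes were lower, which 1 of 4 does not clearly exceed. It rose from time 0 to time 6 in PKBa-/- (1.25 ± 0.19, adjusted p = 0.0012) and in wild type cells (0.79 ± 0.19, adjusted p = 0.020).

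Other chemokine genes were mostly dim. Of 27 on the array 7 were tested, and the other 20 stayed at or below 172 on every array. Cx3cl1 (fractalkine), a membrane-bound chemokine, was higher in PKBa-/- at times 6, 24 and 48 (1.00 ± 0.21, 1.29 ± 0.21 and 1.05 ± 0.21; adjusted p = 0.0058, 9.2e-04 and 0.0033). Cxcl13, which attracts B cells, was lower in PKBa-/- at time 48 (-1.57 ± 0.39, adjusted p = 0.012) and rose by then in wild type cells (1.49 ± 0.39, adjusted p = 0.044, and 0.079 with no limit on signal). Averaged over the times, Cxcl16 was lower (-0.52 ± 0.12, adjusted p = 0.0030) and Ccl5 higher in PKBa-/- (0.18 ± 0.06, adjusted p = 0.029). Cx3cl1 and Cxcl13 were also called in that average (0.93 ± 0.10 and -0.64 ± 0.19, adjusted p = 1.2e-05 and 0.015). The list's median change at time 2 was -0.08 in PKBa-/- and 0.12 in wild type cells, beside -0.02 and -0.05 over all tested genes.

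Of 28 genes for NF-kB subunits, inhibitors and upstream kinases on the array, 21 were tested. At time 0, 4 were lower in PKBa-/-, beside 8.42% of all tested genes, namely the A20-binding protein Tnip1 (-0.58 ± 0.11), the nuclear IkB proteins Nfkbiz (-1.17 ± 0.23) and Bcl3 (-0.42 ± 0.09), and the kinase Irak1 (-0.40 ± 0.10). Averaged over the times 8 were lower and 2 higher in PKBa-/-, beside 20.9% and 26.5% of all tested genes, the higher ones being the kinase Ikbkb (0.54 ± 0.09, adjusted p = 4.9e-04) and the subunit Nfkb2 (0.23 ± 0.05, adjusted p = 0.0016). The list's median difference at time 0 was -0.12, beside 0.03 over all tested genes. From time 0 to time 2, Nfkbiz (2.36 ± 0.29, adjusted p = 4.9e-04) and Bcl3 (0.68 ± 0.12, adjusted p = 0.0059) rose in PKBa-/- and Bcl3 in wild type cells (1.03 ± 0.12, adjusted p = 2.3e-04). Nfkbiz was also above time 0 at times 6, 24 and 48 in PKBa-/- (1.21 ± 0.23, 1.46 ± 0.23 and 1.18 ± 0.23; adjusted p = 0.0042, 0.0033 and 0.0095). In wild type cells it was above time 0 at times 24 and 48 (0.91 ± 0.23 and 0.97 ± 0.23; adjusted p = 0.043 and 0.029), and the call at time 24 was lost with no limit on signal (adjusted p = 0.069).

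Of 28 other target genes of NF-kB on the array 17 were tested, and some of these moved at time 2 in each genotype. In PKBa-/- cells 6 rose and 1 fell, and in wild type cells 4 rose and 2 fell, where 2.17% and 1.3% of all tested genes rose and 1.24% and 1.43% fell. With no limit on signal 4 rose in PKBa-/-, since Gadd45b and Lif were no longer called (adjusted p = 0.055 and 0.059). Ier3, an early response gene, rose on the log2 scale by 3.23 ± 0.24 in PKBa-/- and 1.75 ± 0.24 in wild type cells (adjusted p = 1.2e-05 and 0.0012). Socs3, an inhibitor of cytokine signalling, rose by 2.69 ± 0.28 in PKBa-/- and 2.01 ± 0.28 in wild type cells (adjusted p = 1.5e-04 and 0.0013). Ptgs2 (cyclooxygenase 2) rose by 3.46 ± 0.46 in PKBa-/- and 2.45 ± 0.46 in wild type cells (adjusted p = 0.0011 and 0.013). All 3 fell again between times 2 and 6 in both genotypes, as Il6 did. Ccl2 also fell between these times in both genotypes. In wild type cells it had not risen before, with a mean signal of 1314 at time 0 and 894 at time 2. The median change at time 2 was 0.23 in PKBa-/- and 0.01 in wild type cells, beside -0.02 and -0.05 over all tested genes.

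Csf1, the macrophage growth factor, went in opposite directions. It rose at time 2 in PKBa-/- (1.25 ± 0.21, adjusted p = 0.0056) and fell in wild type cells (-0.97 ± 0.21, adjusted p = 0.029). The difference between these changes passed (2.23 ± 0.30, adjusted p = 0.0052), and it was the 1 gene of the list to do so at time 2. At time 48, 1 of the 17 was higher in PKBa-/- and 10 were lower, beside 12.4% of all tested genes that were higher and 10.9% that were lower. The higher one was the adhesion molecule Vcam1 (0.70 ± 0.17, adjusted p = 0.0096). The lower ones included Ier3 (-1.93 ± 0.19), the siderophore-binding protein Lcn2 (-2.18 ± 0.26), the stress protein Gadd45b (-1.17 ± 0.15) and the acute phase protein Saa3 (-3.03 ± 0.50). Their adjusted p were 1.9e-05, 6.9e-05, 1.3e-04 and 9.5e-04, and the median of the list was -0.60, beside 0.04 over all tested genes. Lcn2 rose in wild type cells by time 48 (2.43 ± 0.26, adjusted p = 3.2e-04), and its change differed between genotypes by -2.13 ± 0.36 (adjusted p = 0.013). It passed the limit on signal only through wild type arrays, since PKBa-/- arrays read at most 90.5. The place of Lcn2 among the 10 lower genes and in their list's median is thus no independent support.

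**Figure D5:**
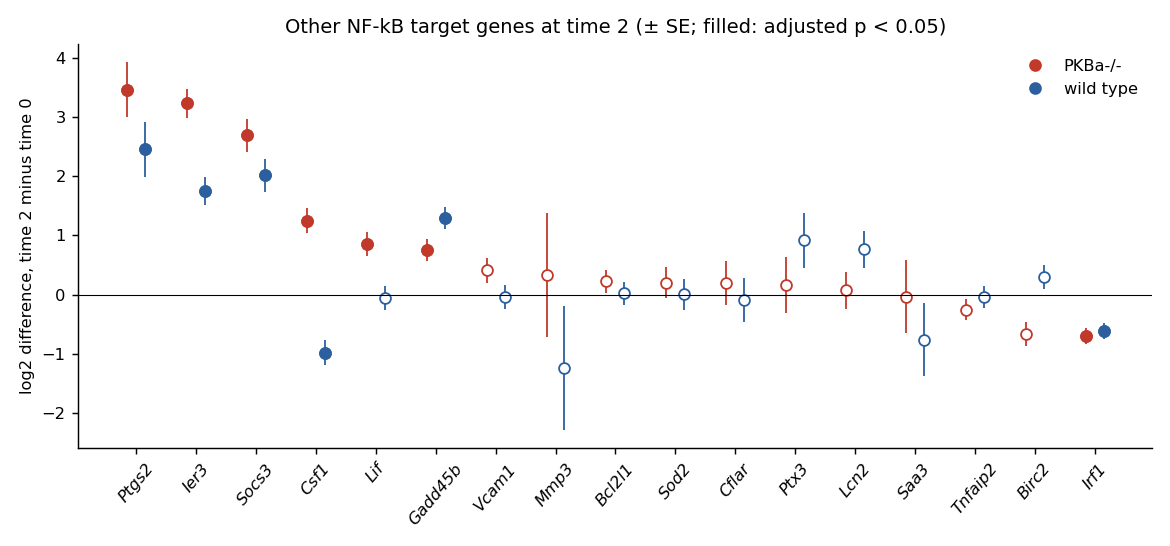
Difference of log2(signal + 32), time 2 minus time 0 (± SE from limma), for the 17 tested genes of the list of other NF-kB targets, PKBa-/- in red left of wild type in blue; filled points passed an adjusted p of 0.05. Ptgs2, Ier3 and Socs3 rose in both genotypes, and Csf1 lies above 0 in PKBa-/- and below 0 in wild type.

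For each tested member, the 3 genes whose 10 group means correlated most closely with it are given as a description. The 10 points are the 5 times of each genotype. For Ccl2 they were Ddb1, Rheb and Pitpnm2 (Pearson's r of 0.96, 0.94 and 0.93). For Cxcl1 they were Socs1, Usp2 and Arid5a (0.94, 0.92 and 0.91), and for Cxcl12 they were Pdgfa, Desi2 and C1ra (0.96, 0.95 and 0.94). For Cxcl15 they were Tor4a, Hoxb3 and Nnmt (0.97, 0.97 and 0.96). For Nfkbia they were Bicc1, Mbd1 and Laptm4a (0.98 each).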

How the data were processed

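RNA of 36 MEF samples was labelled as biotinylated cRNA and hybridised to 1-colour Affymetrix arrays, per the labels' protocols. The authors deposited 1 table of probe set intensity values on a linear scale, and its summarisation and normalization are not given in the sources used here. Of 22690 probe sets, 20380 had 1 gene symbol in GEO's platform annotation, 691 had several, 1555 had none and 64 were controls. Each of the 12393 genes was represented by its brightest probe set. Signals were taken as log2(signal + 32), and the 40% of genes with the lowest mean were not tested, which left 7436.

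Replicates 1 and 2, and 3 and 4, of a group were averaged, and the 18 pairs were fitted by genotype and time in limma 3.58.1 (R 4.3.3), with Benjamini-Hochberg adjustment over all tested genes. Separate cultures are not stated, so p-values measure the spread between these pairs, and precision is limited by how few arrays there are. Pairs of time 2 are single in each genotype and borrow the spread of the other groups. On simulated data for the 7436 genes with 200 changed, the time 2 comparison in PKBa-/- recovered 36% of 1.5-fold and 94% of 2-fold changes with 8 false calls, against 383 with arrays as replicates. The simulated arrays had correlated pairs, the same spread of a gene in every group and no deviation of a set shared over times. The numbers of false calls follow from these settings and do not give the rate in the data.

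Same-numbered arrays deviated together within each genotype between time 0 and times 6, 24 and 48 (r from 0.102 to 0.662 over the pairs of arrays) and between genotypes at times 24 and 48 (0.172 to 0.359). There a block is given beside a member's result where it changes a call, namely the replicate set of each genotype for changes over time and the set shared by both for genotype differences. At time 2, with replicates 1 and 2 alone, the check cannot show a difference between sets, and the block is given for changes to and from it as well. Between genotypes r was 0.005 to 0.176 at time 0 and -0.170 to 0.205 at time 6, which partly overlaps the values of times 24 and 48. At time 48, 0 of 4 arrays correlated best with their own number in the other genotype. The check thus does not set these times clearly apart.

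The members and all lists of genes were chosen with earlier results of these data known, so that no list is independent evidence. The genes named were all members, the 3 genes most like each tested member, every chemokine or receptor gene called, and of each other list up to 4 genes with the smallest adjusted p in a direction. Alternatives changed the offset, the filter, the probe set of a gene, the scaling, the array weights, the unit of replication, the block and the samples in the fit.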

Additional observations from a re-analysis of the deposited data

Results flagged for a closer look

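In 104 groups of 4 arrays, the highest or lowest array was set against the other 3, and 3 arrays of the members' probe sets stood apart. About 1 in 20 groups of 4 independent arrays would do so by chance, and since these arrays form pairs the rate here is not known. Nfkbia probe set 1448306_at read 192 in PKBa-/- replicate 3 at time 0, against 247 to 256 in the other 3 arrays. Tnfaip3 read 76.2 in PKBa-/- replicate 1 at time 24, against 93.7 to 96.5 in the other 3. Nfkbia probe set 1420089_at read 201 in wild type replicate 2 at time 0, against 177 to 179 in the other 3.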

How the results depend on the processing

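With pair averages, 10 member calls were made between genotypes at single times, 3 against time 0 in PKBa-/-, 5 against time 0 in wild type cells, 0 for the difference between genotypes in the change from time 0, 2 between times 6 and 2, and 4 for the average over the times. In the same order of the first 5, array weights gave 19, 13, 9, 9 and 6, arrays as replicates 18, 10, 8, 5 and 6, the replicate number as a block over arrays 20, 12, 8, 6 and 6, and the replicate set of each genotype as a block 22, 9, 11, 7 and 5. For the genotype differences that block takes the spread between sets, their only replication, out of the error, so that the 22 are not read as calls. The set shared by both genotypes as a block, chosen after seeing the data, gave 13, 4, 6, 2 and 3. Replicates 1 and 2 alone gave 22, 15, 12, 14 and 7. Replicates 3 and 4 alone, which lack time 2, gave 17, 7, 10 and 7 in the first 4. A random pair effect gave 18 between genotypes, 6 in PKBa-/-, 3 for the difference in change and 4 between times 6 and 2. A random replicate set gave 7 in PKBa-/-, 8 in wild type, 5 for the difference in change and 5 between times 6 and 2. With no filter, which adds the 4 dim members, there were 5 in PKBa-/-, 1 for the difference in change, 5 between times 6 and 2 and 7 for the average, and leaving out the lowest 20% or 60% of genes gave 1 for the difference in change. The compared groups alone gave 9 in PKBa-/-, and gave no value for genotypes at time 2, the difference in change or the average. Leaving out single arrays gave 9 to 11 calls between genotypes, 3 in PKBa-/-, 5 to 6 in wild type, 0 to 1 for the difference in change, 2 to 3 between times 6 and 2, and 4 for the average. Direction turned with a call for Cxcl1 between genotypes at time 48 in replicates 3 and 4 alone (-0.63, adjusted p = 0.0014) and for Cxcl15 between times 6 and 2 in wild type replicates 1 and 2 alone (-0.59, adjusted p = 8.3e-06), and the cause was not tested. Of 5807 single values under the alternatives, 5406 kept direction and side of the threshold, 287 were newly called and 9 no longer called. Between genotypes at times 0 and 2, the set shared by both genotypes as a block gave adjusted p = 0.041 for Cxcl15 and 0.049 for Tnfaip3 at time 0, and 0.023 for Cxcl12 and 0.036 for Il6 at time 2. For Cxcl15 at time 0 the sets stood apart in opposite directions in the genotypes, which such a block does not describe. For the 4 dim members, both blocks and the single replicate sets were fitted without the filter, a choice made after seeing the data.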

Other observations

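Of 12 genes known to respond to glucocorticoids, a list chosen with earlier results of these data known, 12 were tested. At time 2, 9 had risen in PKBa-/- cells and 8 in wild type cells, where 2.17% and 1.3% of all tested genes rose, and with no limit on signal 8 in PKBa-/-. Their median changes were 1.69 and 1.90 on the log2 scale, beside -0.02 and -0.05 over all tested genes. Dusp1, a phosphatase of MAP kinases, differed from time 0 by 3.50 ± 0.25 in PKBa-/- and 3.39 ± 0.25 in wild type cells (adjusted p = 1.2e-05 and 9.4e-06). The metallothionein Mt2 differed by 2.79 ± 0.26 in PKBa-/- and 3.00 ± 0.26 in wild type cells (adjusted p = 7.7e-05 and 3.3e-05), and the clock gene Per1 by 1.78 ± 0.15 and 2.04 ± 0.15 (adjusted p = 2.1e-05 and 9.4e-06). At time 48, 8 were above time 0 in PKBa-/- and 11 in wild type cells, where 3.07% and 2.15% of all tested genes were, among them Fkbp5, a chaperone of the glucocorticoid receptor, by 2.08 ± 0.14 in PKBa-/- and 1.65 ± 0.14 in wild type cells (adjusted p = 6.4e-06 and 6.4e-05). Klf9, a transcription factor, was lower in PKBa-/- at each of the 5 times, with a difference of -1.01 ± 0.14 at time 0 (adjusted p = 2.9e-04). Cebpd, a transcription factor of early adipogenesis, was lower in PKBa-/- at times 0, 6, 24 and 48, with a difference of -1.69 ± 0.34 at time 48 (adjusted p = 0.0034).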
